A study of Mus musculus with 8 samples.

Results

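The 54 genes described here encode enzymes of the glutathione and thioredoxin systems, the peroxiredoxins, the enzymes that supply NADPH, and detoxifying enzymes known as targets of the transcription factor NRF2. They were chosen by known function, with earlier results of these data known, and matched by symbol. All 54 were found among the 35975 genes of the deposited tables. Glutathione and thioredoxin are the main carriers of reducing power against peroxides in mammalian cells, and both are kept reduced by NADPH. When electrophiles or peroxides modify KEAP1, NRF2 is released and raises transcription of genes that carry an antioxidant response element, among them those for glutathione synthesis, quinone reduction and glutathione conjugation. In macrophages these enzymes are known to work beside heme breakdown, where free iron drives the formation of reactive oxygen species.

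The libraries come from fibrosarcomas grown under the skin of WT C57BL/6 mice to which the tumor was syngeneic. Tumors were digested with collagenase b and dnase I, red cells were lysed, and the suspension was passed over magnetic columns, with no other treatment named. The iron positive group is the eluate held by the magnet (4 libraries, tags 3L, 3R, 4R and 5L) and the iron negative group is the flowthrough (4 libraries with the same 4 tags). Macrophages appear in the title of the study, yet no antibody sort, age or number of animals is labelled. Whether the tags are separate animals is not stated, so the p-values rest on the spread of these samples alone, which may be technical.

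Depth ran from 19.04 to 24.31 M estimated counts per library. Levels of a gene across libraries are given as CPM, its estimated counts relative to the scaled total of the library. The summed level of 13 macrophage markers was 22123 to 29440 CPM in iron positive and 29374 to 32121 CPM in iron negative libraries, and 0 of the 13 were called higher and 5 lower (a call here is an adjusted p under 0.05 in edgeR; 9 were lower with the tag as a block). Markers of several other cell types were higher in the iron positive fraction. Past the threshold were 13 of 13 endothelial markers and 7 of 10 tested pericyte and smooth muscle markers (11 listed). So were 8 of 11 tested fibroblast and fibrosarcoma markers (12 listed), 6 of 7 skeletal muscle markers and 3 of 6 tested neutrophil markers (7 listed). With the tag as a block, 13 endothelial, 9 pericyte and smooth muscle and 11 fibroblast and fibrosarcoma markers were higher. The same fit called 7 skeletal muscle and 4 neutrophil markers higher. T and NK cell markers went the other way, with 0 higher and 1 lower of 4 tested (6 listed). They summed to 18.8 to 24.9 CPM in iron positive and 30.3 to 43.9 CPM in iron negative libraries. The macrophage sum of 3 of the 4 iron positive libraries lay under the iron negative range. In bulk libraries a smaller number of cells of a type and less RNA per cell cannot be told apart.

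Of the 54 enzymes 18 rose in the iron positive fraction and 0 fell. These were 33.3% of the enzymes, against 8.49% of all 13343 genes tested that were higher and 5.21% that were lower (quasi-likelihood test of edgeR, p adjusted by Benjamini-Hochberg and under 0.05). The enzymes were chosen with earlier results of these data known, so this share is a description only. Of 70 further tested genes of the same pathways 6 (8.57%) were higher and 2 lower. No enzyme was lower at an unadjusted p under 0.05 or in DESeq2 either. The median log2 fold change, iron positive over iron negative, was 0.47 for the 54 enzymes and -0.0061 for all genes tested. Among the 18 that rose the median was 2.10, beside 2.35 for all genes called higher, and among the other 36 it was 0.16. All 18 were higher in iron positive than in iron negative libraries within each of the 4 tags. The calls came from these same libraries and the share over all genes was not counted, so this is no separate support. In 17 enzymes (31.5%) all 4 iron positive libraries lay above all 4 iron negative ones, against 11.2% of all genes tested, and these 17 were all among the 18. The mitochondrial thioredoxin reductase gene Txnrd2 was the single enzyme with all iron positive libraries below. All 54 members passed the filter. Of these, 6 fell under its level of 0.452 CPM in at least 1 iron negative library, and 5 of those 6 were called (Sod3, Gsta3, Aox1, Nqo1 and Gpx7). Their passing rested at least in part on the iron positive libraries. Of the 48 that stood at or above that level in every iron negative library, 13 were called. The share of all genes called under that same condition was not counted, so 13 of 48 has no background here.

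**Figure D1:**
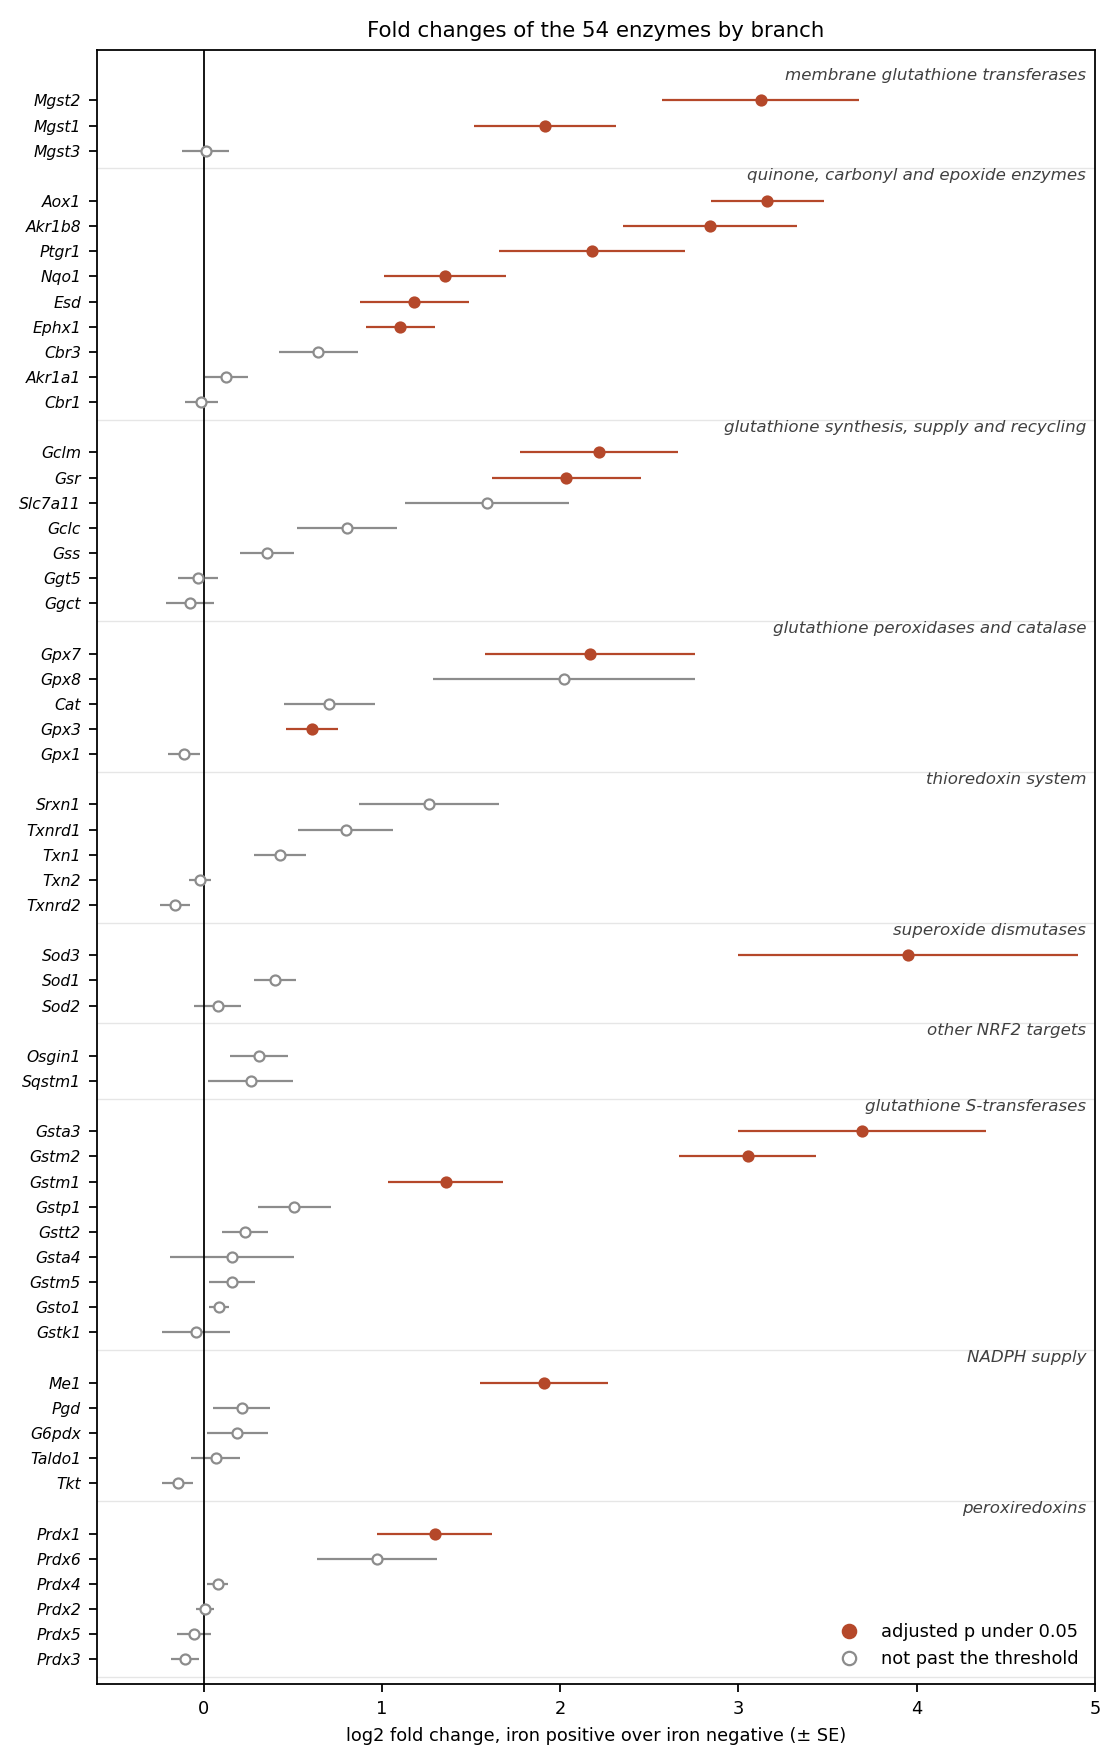
Log2 fold change of each of the 54 enzymes, iron positive over iron negative (x axis, points with SE bars), grouped by branch with the branch of the highest median on top. Filled points passed adjusted p under 0.05 in edgeR; the 18 filled points lie between 0.61 (Gpx3) and 3.95 (Sod3), and most open points lie near 0.

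The branches differed in how many members rose. Ranked by median log2 fold change, the membrane glutathione transferases came first (1.92, with 2 of 3 higher), followed by the quinone, carbonyl and epoxide enzymes (1.18, with 6 of 9) and by glutathione synthesis, supply and recycling (0.81, with 2 of 7). The glutathione peroxidases with catalase had a median of 0.71 (2 of 5), the thioredoxin system 0.43 (0 of 5), the superoxide dismutases 0.40 (1 of 3) and the other NRF2 targets 0.29 (0 of 2). The soluble glutathione S-transferases (0.23, with 3 of 9), the NADPH suppliers (0.19, with 1 of 5) and the peroxiredoxins (0.044, with 1 of 6) came last. Differences between branches were not tested, and within most branches 1 or a few members were high while their relatives stood near 0. With the shared tag as a block in the fit, 27 enzymes (50%) were higher, against 12.8% of all genes, and 0 were lower. These were the same 18 and Slc7a11, Txnrd1, Txn1, Srxn1, Prdx6, Gpx8, Sod1, Cbr3 and Gstp1.

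The number called changed when any 1 library was left out. Leaving out 1 iron negative library (3L, 3R or 4R) left no gene of any kind past the threshold in edgeR, and the smallest adjusted p of an enzyme was 0.0619, 0.0516 and 0.063. Before adjustment, 28, 26 and 26 enzymes had a p under 0.05 in these fits, with all 18 among them. Without iron negative 5L only the aldehyde oxidase Aox1 was called. Without iron positive 4R 7 of the 18 were called, namely Me1, Akr1b8, Ephx1, Aox1, Gsta3, Gstm2 and Mgst2. Leaving out iron positive 3L gave 16 (Nqo1 and Esd were lost), iron positive 3R 27 (Gpx7 and Nqo1 were lost) and iron positive 5L 22. In each of these 8 fits the 18 had an unadjusted p under 0.05 and a positive fold change, and 0 enzymes were called lower, though 2 had a lower level at an unadjusted p under 0.05 without iron positive 3L. Scaling the libraries to the macrophage markers moved the median of all genes by 0.27 and called 35 enzymes (64.8%) higher, against 21% of all genes. Of the 54 fold changes 44 were positive and 10 negative, and all 10 were positive under that scaling. The lowest of the 10 was -0.16 (Txnrd2), smaller in size than the shift of 0.27, so this change of sign follows from the scaling.

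Promoter windows were searched for the core of the antioxidant response element. Part of the list was chosen as known NRF2 targets, so the choice of genes is not independent of this motif and its share is a description only. The motif TGACNNNGC was searched on both strands from 250 bases before to 50 bases after each RefSeq start (GRCm38.p6), where 47 of the 54 genes have a window. It was found for 12 of the 47 (25.5%), against 16.8% of the tested genes with a window. Among the 18 enzymes that rose, 16 have a window and 5 of these hold it (Gclm, Gsta3, Me1, Mgst1 and Prdx1), as do 7 of 31 enzymes that were not called. A match is a description and not a site of binding, and the shares were not tested against each other. In Me1 and Prdx1 the match reads TGACTCAGC, which also holds the AP-1 motif TGANTCA. That motif stood in 8 of the 47 windows (17.0%), against 6.56% of tested genes. The stretches below show 3 enzymes that rose (Prdx1, Gclm and Gsta3) and 2 that were not called (Sod1 and Ggct), each read 5′ to 3′ on the strand that carries the motif, with the motif in capitals.
Prdx1 (chr4:116685451-116685489, minus strand, gene on plus, motif 133 bases before the start): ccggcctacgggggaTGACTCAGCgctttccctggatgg
Gclm (chr3:122245408-122245446, minus strand, gene on plus, motif 134 bases before the start): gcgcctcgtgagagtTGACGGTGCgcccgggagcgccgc
Gsta3 (chr1:21240449-21240487, plus strand, gene on plus, motif 121 bases before the start): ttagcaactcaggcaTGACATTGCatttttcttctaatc
Sod1 (chr16:90220691-90220729, minus strand, gene on plus, motif 56 bases before the start): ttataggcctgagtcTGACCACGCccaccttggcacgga
Ggct (chr6:54993018-54993056, plus strand, gene on minus, motif 174 bases before the start): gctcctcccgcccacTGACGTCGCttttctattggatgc
The 3 free letters in the middle of the motif differ between all 5 genes, and 2 of these 5 genes were not called.

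In glutathione synthesis and recycling, Gclm and Gsr rose. Gclm encodes the modifier subunit of glutamate-cysteine ligase, and Gsr the reductase that regenerates glutathione. Gclm had 232 (3L), 49.5 (3R), 168 (4R) and 74.0 CPM (5L) in iron positive libraries, against 28.9, 27.3, 28.7 and 27.6 CPM in the iron negative libraries of the same tags. The iron negative libraries were nearly level, every iron positive library lay above them, and 3L was highest and 3R lowest. The log2 fold change was 2.22 ± 0.44 (SE, adjusted p = 0.0199). Gsr had 188 (3L), 61.9 (3R), 219.8 (4R) and 70.8 CPM (5L) in iron positive libraries, against 36.5, 34.3, 36.1 and 25.0 CPM in iron negative ones. Here 4R was highest and again no library overlapped, with a log2 fold change of 2.03 ± 0.42 (adjusted p = 0.0209).

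The other genes of this branch were not called, but they were not alike. Slc7a11, the antiporter that imports cystine, had 122 (3L), 30.3 (3R), 88.9 (4R) and 48.1 CPM (5L) in iron positive libraries, against 39.0, 21.2, 22.2 and 13.7 CPM in iron negative ones. The groups overlapped through iron positive 3R and iron negative 3L, and the log2 fold change was 1.59 ± 0.46 (adjusted p = 0.0542; 1.51 and adjusted p = 0.00662 in the fit with the tag block). Gclc, the catalytic subunit beside Gclm, had 0.81 ± 0.28 (adjusted p = 0.0892), and Gss, glutathione synthetase, 0.36 ± 0.15 (adjusted p = 0.146). Per length, the TPM of Gclm over that of Gclc was 9.39 (3L), 4.71 (3R), 11.1 (4R) and 5.59 (5L) in iron positive libraries, against 2.69, 3.15, 3.28 and 2.17 in iron negative ones. The transcripts of the modifier subunit thus outnumbered those of the catalytic subunit more in each iron positive library, a difference that was not tested on its own. Ggct and Ggt5, the last genes of this branch, had log2 fold changes of -0.076 and -0.031.

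Quinone, carbonyl and epoxide enzymes held the most calls, 6 of 9. Akr1b8, an aldo-keto reductase, had 150.0 (3L), 34.1 (3R), 107 (4R) and 37.9 CPM (5L) in iron positive libraries, against 12.9, 9.46, 11.6 and 11.9 CPM in iron negative ones, a log2 fold change of 2.84 ± 0.49 (adjusted p = 0.0173). Ptgr1, a reductase of eicosanoids and reactive alkenals, had 195 (3L), 30.9 (3R), 143 (4R) and 54.5 CPM (5L) in iron positive libraries, against 24.6, 19.2, 25.7 and 24.1 CPM in iron negative ones, 2.18 ± 0.52 (adjusted p = 0.0306). In both, 3L and 4R were far above 3R and 5L, and even the lowest iron positive library lay above the iron negative range. Esd, the esterase that ends the glutathione route of formaldehyde removal, had 382 (3L), 132 (3R), 301 (4R) and 168 CPM (5L) in iron positive libraries, against 120.0, 105, 106 and 102 CPM in iron negative ones, 1.18 ± 0.31 (adjusted p = 0.0381). Iron positive 3R was only just above the iron negative libraries in Esd.

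Nqo1, the quinone reductase by which NRF2 activity is often read, was among the scarcest of the called enzymes. It had 1.40 (3L), 1.26 (3R), 1.79 (4R) and 0.704 CPM (5L) in iron positive libraries, against 0.442, 0.682, 0.493 and 0.391 CPM in iron negative ones, a log2 fold change of 1.35 ± 0.34 (adjusted p = 0.0362). Iron positive 5L nearly met iron negative 3R. Ephx1, the microsomal epoxide hydrolase, had 15.4 (3L), 8.72 (3R), 14.3 (4R) and 9.55 CPM (5L) in iron positive libraries, against 5.88, 5.70, 5.60 and 5.09 CPM in iron negative ones, 1.10 ± 0.20 (adjusted p = 0.0177). Aox1, an aldehyde oxidase, had the smallest adjusted p of the 18. It had 3.94 (3L), 6.25 (3R), 6.89 (4R) and 3.43 CPM (5L) in iron positive libraries, against 0.530, 0.731, 0.627 and 0.391 CPM in iron negative ones, 3.16 ± 0.32 (adjusted p = 0.0118). The iron positive values of Aox1 were close together, and 3R was high in it where it was low in Akr1b8, Ptgr1 and Esd. The aldehyde reductase Akr1a1 (0.13) and the carbonyl reductases Cbr3 (0.64, adjusted p = 0.0861; 0.61 and adjusted p = 0.0471 in the block fit) and Cbr1 (-0.012) were not called.

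Membrane glutathione transferases rose in 2 of 3 genes. Mgst1 had 56.4 (3L), 15.8 (3R), 49.0 (4R) and 21.0 CPM (5L) in iron positive libraries, against 9.55, 8.97, 7.97 and 11.2 CPM in iron negative ones, a log2 fold change of 1.92 ± 0.40 (adjusted p = 0.0214). Mgst2, which can also make leukotriene C4, had 10.7 (3L), 3.43 (3R), 6.54 (4R) and 1.67 CPM (5L) in iron positive libraries, against 0.574, 0.682, 0.761 and 0.522 CPM in iron negative ones, 3.12 ± 0.55 (adjusted p = 0.0176). No library overlapped in either gene, and 3L and 4R were again the highest. Mgst3 stood at 0.013 ± 0.13 (adjusted p = 0.960). The TPM of Mgst1 was 2.14 to 5.10 times that of Mgst3 in iron positive libraries, against 0.828 to 1.20 times in iron negative ones.

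Soluble glutathione S-transferases, which conjugate glutathione to electrophiles, rose in 3 of 9 genes. Gsta3, of the alpha class, had 10.2 (3L), 1.71 (3R), 9.81 (4R) and 3.61 CPM (5L) in iron positive libraries, against 0.309, 0.244, 1.03 and 0.348 CPM in iron negative ones. The log2 fold change was 3.69 ± 0.70 (adjusted p = 0.0184), and 4.36 without iron negative 4R, which stood apart from the other iron negative libraries. Gstm1, of the mu class, had 92.0 (3L), 33.0 (3R), 82.1 (4R) and 38.2 CPM (5L) in iron positive libraries, against 23.6, 22.7, 25.0 and 24.5 CPM in iron negative ones, 1.36 ± 0.32 (adjusted p = 0.0296). Gstm2, its neighbour on chromosome 3, had 12.4 (3L), 7.46 (3R), 12.3 (4R) and 3.87 CPM (5L) in iron positive libraries, against 0.884, 1.36, 1.12 and 0.957 CPM in iron negative ones, 3.05 ± 0.38 (adjusted p = 0.0155). The fractions did not overlap in any of these 3. Gstp1 had 0.51 ± 0.20 (adjusted p = 0.125; 0.46 and adjusted p = 0.0409 in the block fit). Gstt2, Gsta4, Gstm5, Gsto1 and Gstk1 lay between -0.042 and 0.23 and were not called.

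Among the superoxide dismutases and the peroxidases, Sod3 and Gpx7 had 3R as the highest iron positive library. Sod3, the secreted dismutase of the extracellular matrix, had the largest log2 fold change of the 54, 3.95 ± 0.95 (adjusted p = 0.0314). It had 0.847 (3L), 7.71 (3R), 2.88 (4R) and 0.880 CPM (5L) in iron positive libraries, against 0.00, 0.292, 0.269 and 0.217 CPM in iron negative ones. Every iron negative value lay under the filter level of 0.452 CPM, so Sod3 passed the filter only through the iron positive libraries. Iron positive 3R was far above the others, and without it the log2 fold change was 2.96. The 0 counts in iron negative 3L allow up to 3 counts, or 0.123 CPM of the library total, for counting error only. Gpx7, a peroxidase of the endoplasmic reticulum, had 1.64 (3L), 6.40 (3R), 3.53 (4R) and 1.06 CPM (5L) in iron positive libraries, against 0.619, 1.12, 0.672 and 0.391 CPM in iron negative ones, 2.17 ± 0.59 (adjusted p = 0.0449). It was the single called enzyme whose fractions overlapped, iron positive 5L lying under iron negative 3R, and without iron positive 3R it had 1.57 and was not called. Gpx8, its relative in the same compartment, had 2.02 ± 0.73 (adjusted p = 0.101; 1.82 and adjusted p = 0.00772 in the block fit) and was likewise highest in iron positive 3R, at 14.4 CPM.

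Gpx3, the secreted peroxidase, rose by the smallest amount of the 18. It had 47.0 (3L), 31.5 (3R), 45.4 (4R) and 31.1 CPM (5L) in iron positive libraries, against 23.6, 26.6, 25.3 and 26.1 CPM in iron negative ones, a log2 fold change of 0.61 ± 0.15 (adjusted p = 0.0315). Catalase, Cat, had 0.71 ± 0.25 (adjusted p = 0.0992), and Gpx1, the abundant cytosolic peroxidase, -0.11 ± 0.090 (adjusted p = 0.453). The cytosolic dismutase Sod1 had 0.40 ± 0.12 (adjusted p = 0.0562; 0.39 and adjusted p = 0.0171 in the block fit) and the mitochondrial Sod2 0.080 ± 0.13 (adjusted p = 0.724).

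Among the peroxiredoxins only Prdx1 was called in edgeR without the block. Prdx1 reduces hydrogen peroxide in the cytosol with electrons from thioredoxin. It had 1593 (3L), 492 (3R), 1156 (4R) and 700.4 CPM (5L) in iron positive libraries, against 439, 388, 399.6 and 377 CPM in iron negative ones, a log2 fold change of 1.30 ± 0.32 (adjusted p = 0.0344). The fractions did not overlap, and 3L was highest and 3R lowest. Prdx6, which uses glutathione, had 0.97 ± 0.34 (adjusted p = 0.0892; 0.84 and adjusted p = 0.0334 in the block fit). Prdx2 (0.0082), the endoplasmic Prdx4 (0.079), the mitochondrial Prdx3 (-0.10) and Prdx5 (-0.055) stood near 0 and were not called.

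In the thioredoxin system no gene was called without the block. Txn1, cytosolic thioredoxin, had 274 (3L), 178 (3R), 241 (4R) and 184 CPM (5L) in iron positive libraries, against 180.5, 146, 158 and 166 CPM in iron negative ones, a log2 fold change of 0.43 ± 0.14 (adjusted p = 0.0824; 0.41 and adjusted p = 0.0220 in the block fit). The overlap came from iron positive 3R, which lay under iron negative 3L. Txn2, the mitochondrial thioredoxin, had 79.0 (3L), 73.6 (3R), 70.8 (4R) and 74.0 CPM (5L) in iron positive libraries, against 78.3, 78.3, 67.9 and 76.6 CPM in iron negative ones, -0.018 ± 0.062 (adjusted p = 0.877). The reductases had a like split, with 0.80 ± 0.26 for the cytosolic Txnrd1 (adjusted p = 0.0796; 0.71 and adjusted p = 0.0284 in the block fit) and -0.16 ± 0.082 for the mitochondrial Txnrd2 (adjusted p = 0.225). Srxn1, sulfiredoxin, which restores overoxidised peroxiredoxins, had 1.26 ± 0.39 (adjusted p = 0.0665; 1.12 and adjusted p = 0.0124 in the block fit). The TPM of Txnrd1 was 6.24 to 12.1 times that of Txnrd2 in iron positive libraries, against 4.32 to 5.55 times in iron negative ones, and the difference in this ratio was not tested.

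Of the NADPH suppliers, Me1, cytosolic malic enzyme, rose. It had 10.5 (3L), 7.41 (3R), 12.0 (4R) and 4.97 CPM (5L) in iron positive libraries, against 1.10, 2.78, 2.73 and 2.65 CPM in iron negative ones, a log2 fold change of 1.91 ± 0.36 (adjusted p = 0.0184) with no overlap. The pentose phosphate enzymes were not called: G6pdx (0.19) and Pgd (0.21), which make NADPH in its oxidative arm, and Taldo1 (0.069) and Tkt (-0.15) of its other arm. Of the 2 remaining NRF2 targets, Sqstm1, the autophagy receptor that binds KEAP1, had 1087 (3L), 470.1 (3R), 688 (4R) and 674 CPM (5L) in iron positive libraries, against 719, 478, 575 and 659 CPM in iron negative ones. Its fractions overlapped widely, with 0.26 ± 0.24 (adjusted p = 0.499). Osgin1, an oxidative stress response gene, had 43.2 (3L), 24.6 (3R), 34.1 (4R) and 31.2 CPM (5L) in iron positive libraries, against 27.5, 25.8, 23.3 and 30.7 CPM in iron negative ones, 0.31 ± 0.16 (adjusted p = 0.233).

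**Figure D2:**
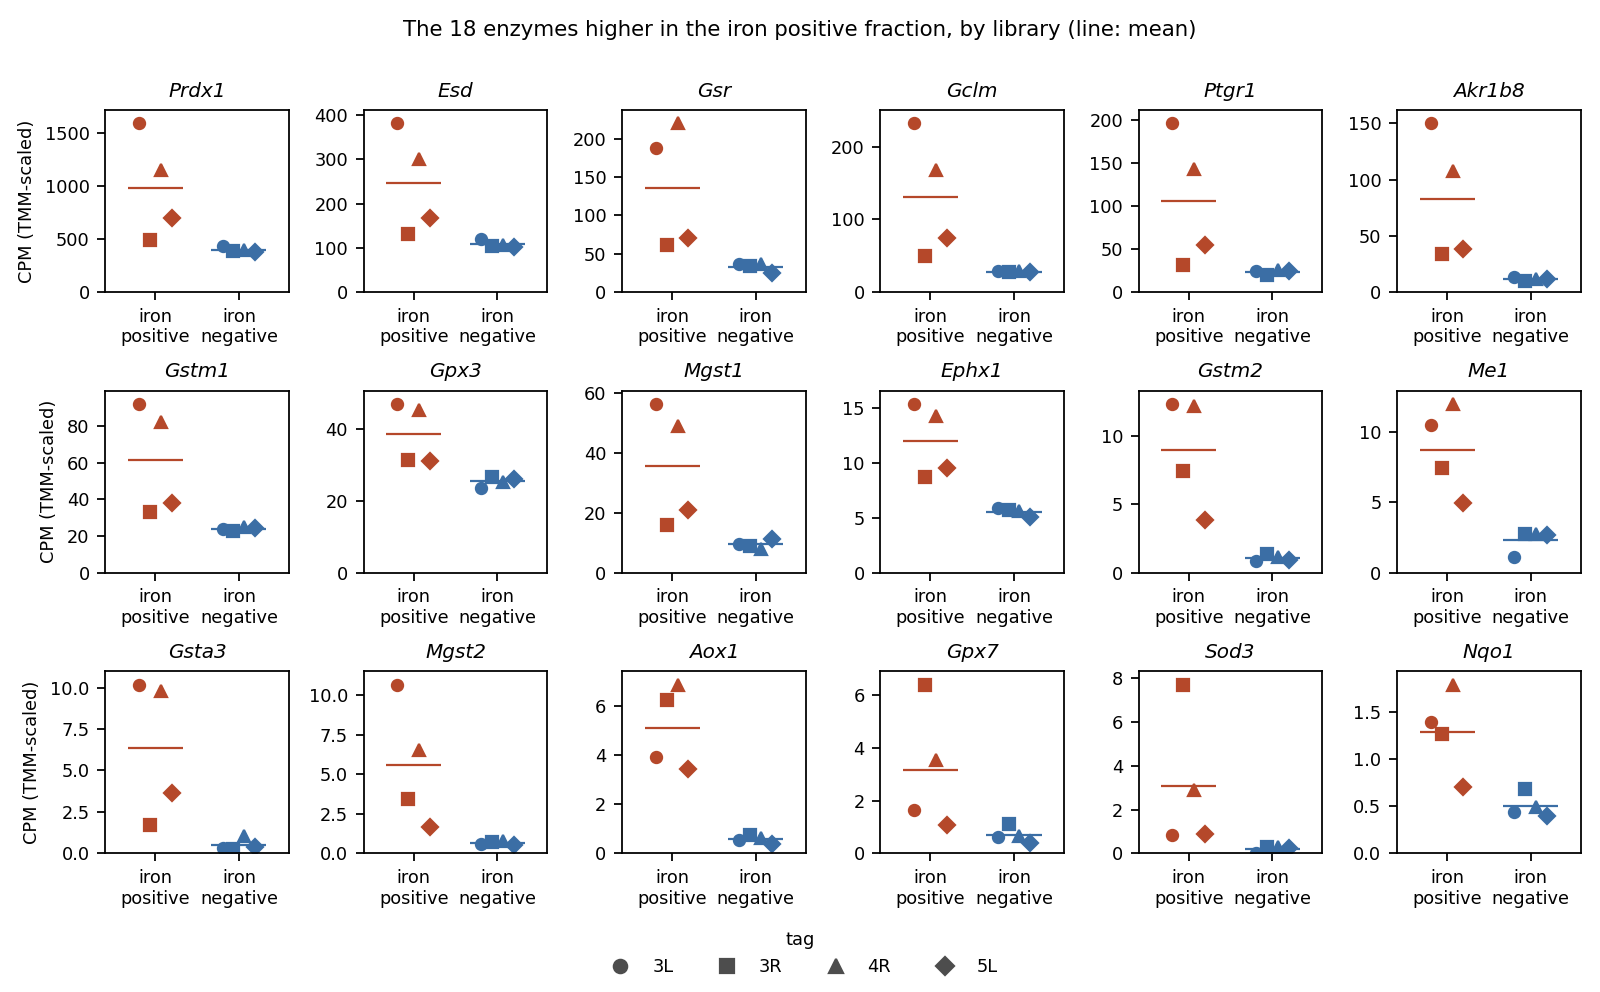
CPM of the 18 enzymes that rose (y axes, each from 0) in the 4 iron positive (left, red) and 4 iron negative (right, blue) libraries, with marker shapes for the tags and a line at the mean. Iron negative libraries lie close together, and in most panels iron positive 3L and 4R stand above 3R and 5L; in Sod3 and Gpx7 3R is highest.

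Levels can be compared between genes only per length, as TPM. The summed TPM of the 54 enzymes was 10332 (3L), 6065 (3R), 9688 (4R) and 6965 (5L) in iron positive libraries, against 5842 to 6088 in iron negative ones. The sum in iron positive 3R thus lay within the iron negative range. Prdx1 had the highest TPM of the 54 in iron positive 3L (1808) and 4R (1517), while Gpx1 was highest in the other 6 libraries. Prdx1 made up 17.5% (3L), 9.86% (3R), 15.7% (4R) and 11.7% (5L) of the summed TPM in iron positive libraries, against 7.20% to 8.36% in iron negative ones. Mean TPM of Prdx1 was 1185 ± 571 in iron positive and 474 ± 35.4 in iron negative libraries (SD, n = 4 each). Mean TPM of Gpx1 was 873 ± 92.9 in iron positive and 896 ± 31.4 in iron negative libraries, and that of Akr1a1 was 872 ± 123 in iron positive and 772 ± 23.4 in iron negative ones. The spread between iron positive libraries was larger than that between iron negative ones for all 3. Esd, at 545 ± 246 TPM in iron positive and 229.9 ± 11.5 TPM in iron negative libraries, was next to Prdx1 the most abundant enzyme that rose. Nqo1 (1.26 ± 0.465 TPM in iron positive and 0.475 ± 0.129 TPM in iron negative libraries), Aox1 and Sod3 were at the other end.

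**Figure D3:**
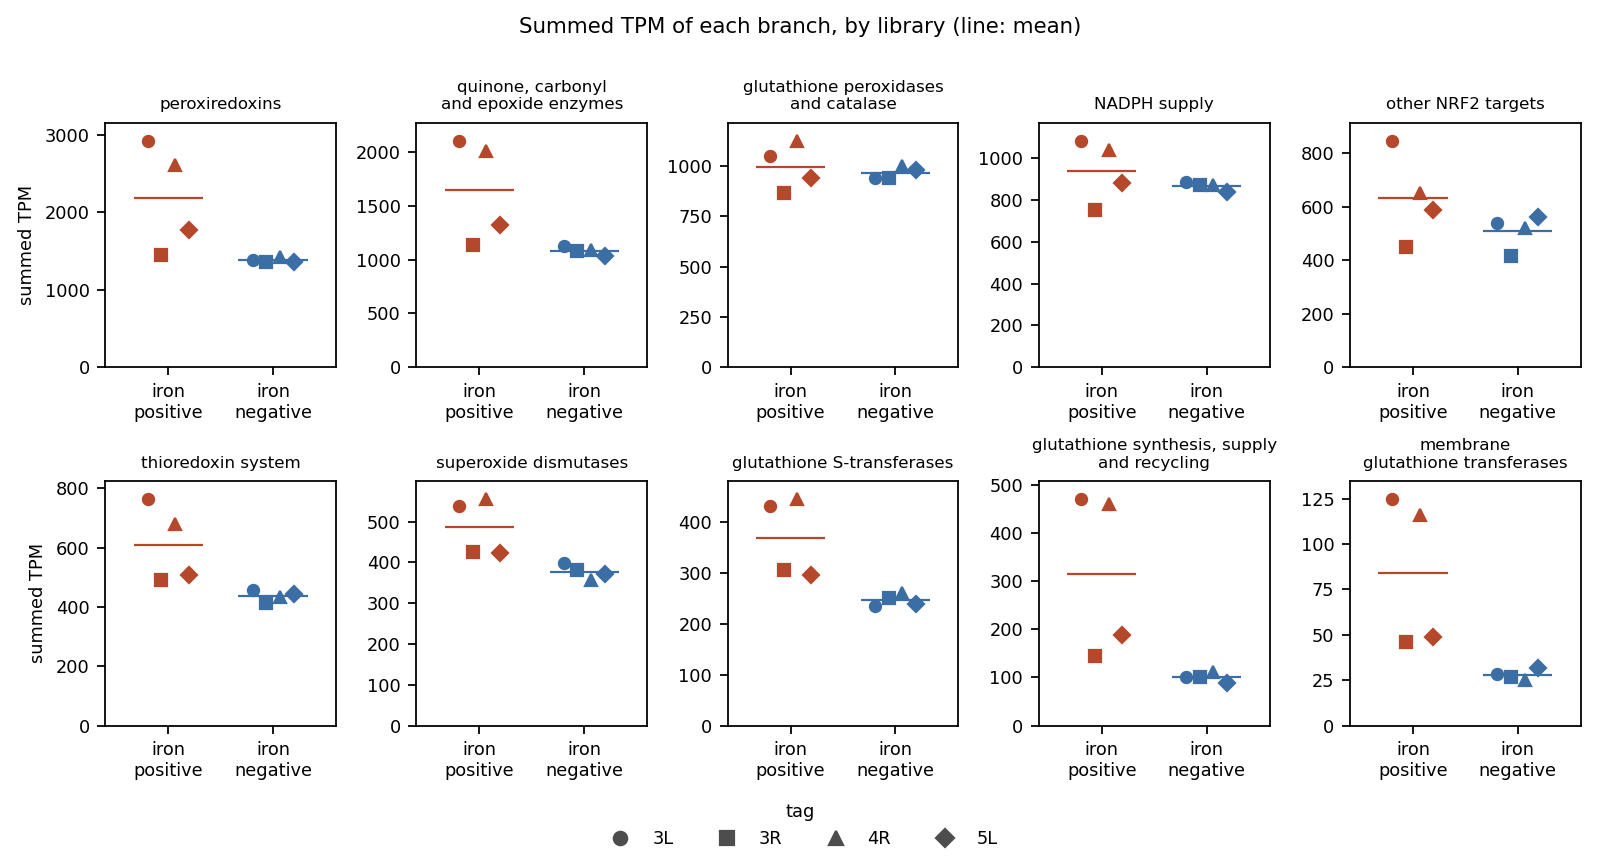
Summed TPM of the 10 branches (y axes, each from 0) in iron positive (left, red) and iron negative (right, blue) libraries, with marker shapes for tags and a line at the mean. Peroxiredoxins have the highest sums, 1448 to 2919 in iron positive and 1351 to 1418 in iron negative libraries; the fractions overlap for the NADPH suppliers, the glutathione peroxidases with catalase and the other NRF2 targets, and do not overlap for the rest.

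The iron positive libraries differed more in these enzymes than the iron negative ones. Among the 18 that rose the highest iron positive library was 1.51 to 9.10 times the lowest (median 3.40), while the median ratio among iron negative libraries was 1.40. Of all 54 enzymes 37 were highest in iron positive 3L and 38 lowest in iron positive 3R. Among the 18 that rose, 3L and 4R were the 2 highest iron positive libraries in 15 (83.3%), against 241 of the 1133 genes called higher (21.3%). In 811 of those 1133 genes (71.6%) 3R and 4R were the 2 highest, and among the enzymes this held for Gpx7, Sod3 and Aox1. The difference between these shares was not tested, since the 4 libraries are shared by all genes.

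The marker lists of other cells had orders of their own across the same libraries. Endothelial markers summed to 195 (3L), 1644 (3R), 1018 (4R) and 255 CPM (5L) in iron positive libraries, against 35.7 to 76.0 CPM in iron negative ones. Pericyte and smooth muscle markers summed to 96.8 (3L), 728 (3R), 501 (4R) and 161 CPM (5L) in iron positive libraries, against 29.1 to 62.1 CPM in iron negative ones. Fibroblast and fibrosarcoma markers summed to 1109 (3L), 5814 (3R), 2408 (4R) and 1089 CPM (5L) in iron positive libraries, against 500.3 to 787 CPM in iron negative ones. These 3 lists were highest in 3R, where 10 of the 18 enzymes that rose were lowest, and Sod3, Gpx7 and Gpx8 were high in the same library. Skeletal muscle markers were also highest in 3R, at 94.6 CPM, and summed to 33.9 to 94.6 CPM in iron positive and 8.31 to 20.2 CPM in iron negative libraries. Neutrophil markers summed to 119.5 (3L), 73.0 (3R), 148 (4R) and 90.5 CPM (5L) in iron positive libraries, against 71.8 to 84.7 CPM in iron negative ones. Of these, S100a8, S100a9 and Mmp8 rose, Csf3r, Retnlg and Cxcr2 were not called (Retnlg was higher with the tag as a block, log2 fold change 1.57, edgeR adjusted p = 0.0388), and the defining marker Ly6g was at 0 in all 4 iron positive libraries. The neutrophil sum was thus highest in 4R and 3L and lowest in 3R, as were most enzymes that rose. Macrophage markers summed to 29440 (3L), 22123 (3R), 26944 (4R) and 28709 CPM (5L) in iron positive libraries. Red cell markers, of which 0 of 5 tested were called (4 were higher with the tag as a block), summed to 42.0 to 212 CPM in iron positive and 11.8 to 60.7 CPM in iron negative libraries, while Adipoq, Lep and Krt5 were at 0 in all 8 libraries. The part of these cells in the enzyme values was not tested.

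**Figure D4:**
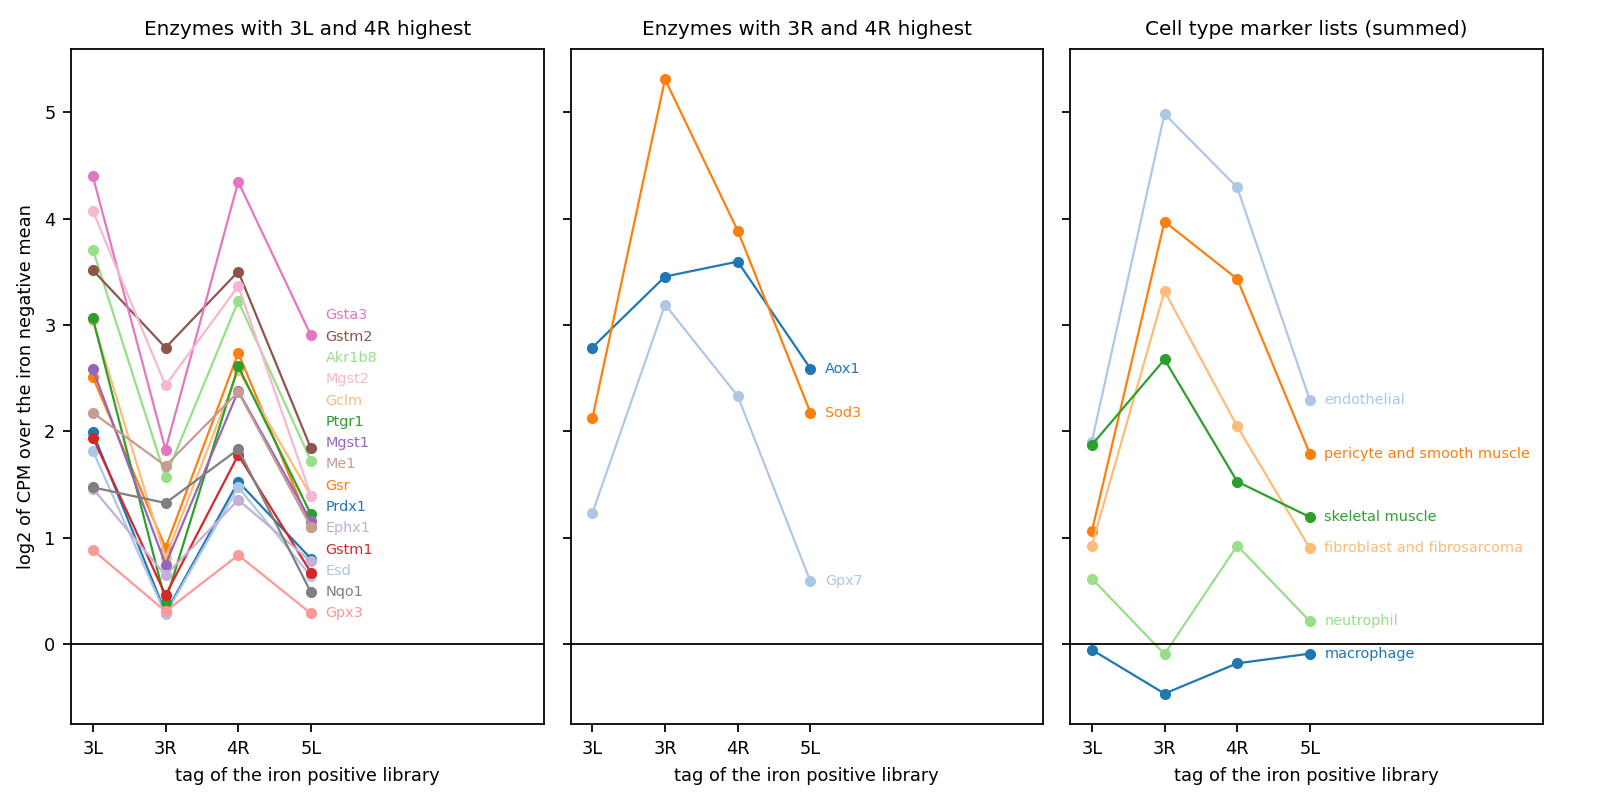
Log2 of CPM in each iron positive library over the iron negative mean (y axis) by tag (x axis), for the 15 enzymes with 3L and 4R highest (left), for the 3 with 3R and 4R highest (middle) and for summed marker lists (right); lines only join the points of 1 item. The left panel runs from 0.28 to 2.79 at 3R, while the endothelial sum stands at 4.98 in 3R and 1.90 in 3L. The lists for T and NK cells, red cells, adipocytes and epithelial cells are not drawn.

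Other genes of the same pathways were listed by function. Of 83 such genes 70 were tested, of which 6 (8.57%) were higher and 2 lower, with a median log2 fold change of 0.065; 11 were higher and 6 lower with the tag as a block. None of 13 further glutathione genes was called, with or without the block. Of 13 thioredoxin and methionine sulfoxide genes 1 rose, Msrb3, a methionine sulfoxide reductase (3.15 ± 0.74, adjusted p = 0.0292). It had 3.39 (3L), 22.1 (3R), 9.94 (4R) and 3.96 CPM (5L) in iron positive libraries, and so shared the high 3R of Sod3 and Gpx7, against 0.354, 2.24, 0.806 and 1.04 CPM in iron negative ones. Of 11 NADPH genes Nadk, the kinase that makes NADP from NAD, fell (-0.28 ± 0.061, adjusted p = 0.0248). Under the macrophage scaling Nadk had -0.0056. In the block fit Idh1 (0.67, adjusted p = 0.0281) and H6pd (0.45, adjusted p = 0.0437) were higher, and Idh2 (-0.27, adjusted p = 0.0195) was lower. Of 26 tested detoxification genes 5 rose. Those with the smallest adjusted p were Gstp2 (1.59 ± 0.31, adjusted p = 0.0195), Tst, a sulfurtransferase (1.43 ± 0.31, adjusted p = 0.0231), and Abcc4, an export pump (0.49 ± 0.11, adjusted p = 0.0282). Abcc5, another export pump (0.38), and Ugdh, which makes UDP-glucuronic acid (0.32), were the others that rose. Of the 7 regulators none was called, and 2 were lower and 0 higher in the block fit. Nfe2l2, the gene of NRF2 itself, had -0.45 ± 0.22 (adjusted p = 0.211; lower in the block fit, adjusted p = 0.00944), Maff, a small MAF partner of NRF2, -0.51 ± 0.17 (adjusted p = 0.0853; lower in the block fit, adjusted p = 0.0168), Keap1 0.0011 ± 0.064 (adjusted p = 0.993) and Bach1 -0.088 ± 0.092 (adjusted p = 0.558).

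A few of the 54 genes are neighbours, and their fold changes differed in size. Positions are those of GENCODE M21 on GRCm38. Gstm5 (chr3:107895821-107898686), Gstm2 (chr3:107981702-107986453) and Gstm1 (chr3:108012255-108017973) lie in 1 cluster of mu-class genes, with gaps of 83.0 and 25.8 kb. Their log2 fold changes were 0.16 ± 0.13, 3.05 and 1.36, of which the last 2 were called. Per length, Gstm2 stood at 1.54 (3L), 0.938 (3R), 1.83 (4R) and 0.457 (5L) times the TPM of Gstm5 in iron positive libraries, against 0.145, 0.199, 0.151 and 0.123 times in iron negative ones. Akr1a1 (chr4:116636510-116651680) and Prdx1 (chr4:116685544-116700822) are 33.9 kb apart and had 0.13 and 1.30. Cbr1 (chr16:93605853-93610505) and Cbr3 (chr16:93683215-93690990) are 72.7 kb apart and had -0.012 and 0.64, neither of them called. Among the other enzymes that rose, Gclm lies at chr3:122245557-122270732, Gsr at chr8:33652523-33698163, Akr1b8 at chr6:34354119-34368463, Aox1 at chr1:58029931-58106413, Gsta3 at chr1:21240589-21265661, Mgst2 at chr3:51660360-51682677 and Sod3 at chr5:52363791-52371418.

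Some levels are uncertain because the gene shares sequence with a copy or a neighbour, so that estimated counts could be split between them. Of the 31-base words in each gene's transcripts, 38.5% were shared with another gene for Gstp1 (all with Gstp2), 30.0% for Me1 (mostly Gm7049), 28.8% for Gstm1 (mostly Gstm2-ps1), 23.6% for G6pdx (mostly G6pd2) and 22.5% for Sod2 (mostly Rps6ka2). The shares were 16.9% for Prdx5, 16.3% for Sqstm1, 15.2% for Prdx1, 14.0% for Taldo1, 12.2% for Gstm2, 12.1% for Esd and 11.6% for Prdx2. Among the 18 that rose, Gsr, Gpx7, Mgst1 and Nqo1 shared no such word with any other gene.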

How the data were processed

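Total RNA of the column fractions was sequenced as 8 bulk libraries. Per the submitters' processing notes, transcripts were quantified with kallisto 0.46.2 on mm10. The release of the transcript set: not given in the sources used here. Per the file headers, the deposited tables hold estimated counts per transcript, not normalized, TPM (relative to effective length and to the total of the library), and transcript lengths as other values.

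The 119414 transcripts were joined to GENCODE M21 (GRCm38) by identifier without version. Of these 116728 matched; the 2686 others held 0.888% to 0.961% of the counts and were left out. Estimated counts and TPM were summed per gene, and the counts were rounded. Strand was not used, so overlapping genes cannot be told apart. Genes were filtered with filterByExpr, library factors came from trimmed means of M values (TMM), and edgeR 4.0.16 (R 4.3.3) tested the fraction with its quasi-likelihood test. P-values were adjusted by Benjamini-Hochberg over all 13343 genes tested. Single-gene p-values come from this fit unless another is named. SEs are the coefficient over the square root of F, and are approximate. Alternatives used other scalings and filters, DESeq2 1.42.0, limma 3.58.1 (voom, and log2 of TPM plus 1 or 0.1), the tag as a block, and each library left out in turn.

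The tags come from the labels. Deviations from the fraction mean correlated, across genes, at 0.53 (3L), 0.52 (3R), 0.27 (4R) and 0.30 (5L) between same-tag libraries. All were above the limit of 0.1 set for pairing, so blocked values are given where they change a call. Some pairs of different tags also passed this limit, the highest at 0.26 (iron positive 4R with iron negative 3R). Other different-tag pairs were negative, down to -0.47 (iron positive 3L with iron negative 3R). The limit alone thus does not set same-tag pairs apart, and the 4R value was only just above the highest different-tag value. No replicates agreed within counting noise (chi-square per gene 43.9 to 112 between iron positive and 9.38 to 26.9 between iron negative libraries). The scripts were tested on simulated counts.

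The enzymes, other lists and alternatives were chosen with earlier results of these data known. Every called member is given in every library; where a branch had none, its 2 members with the highest mean TPM are given, and other pathway genes up to 3 per list by adjusted p. Slc7a11, Prdx6, Gpx8 and further uncalled genes were given fuller values after their values were seen. Abcc5, Ugdh, Idh1, H6pd, Idh2 and the regulators were also named after their values were seen. Single-gene values of some listed genes are not reported here. Promoter sequences are from RefSeq (GRCm38.p6); Gclc, Ggt5, Gsr, Gsta4, Gstt2, Prdx6 and Sod3 had no window.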

Additional observations from a re-analysis of the deposited data

Results flagged for a closer look

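In 6 of 108 groups of 4 libraries (54 enzymes in each fraction) the highest or the lowest library stood far from the other 3, where chance flags about 1 in 20 groups. In the iron positive fraction this was Ggt5, at 36.2 CPM in 4R against 26.3 to 27.6 CPM in the others. The 5 others lay in the iron negative fraction. Txn2 was low in 4R (67.9 CPM, others 76.6 to 78.3), Me1 was low in 3L (1.10 CPM, others 2.65 to 2.78) and Gsta4 was low in 3L (0.354 CPM, others 0.761 to 0.783). Prdx3 was high in 3L (49.7 CPM, others 43.0 to 43.7) and Gsta3 was high in 4R (1.03 CPM, others 0.244 to 0.348). Me1 and Gsta3 are among the enzymes that rose in the iron positive fraction.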

How the results depend on the processing

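Of the 54 enzymes 18 were higher in the main analysis, 27 in the paired fit with the tag as a replicate block, 35 under the macrophage scaling, 28 with DESeq2 and 2 with limma voom (Ephx1 and Aox1), and 0 to 27 when 1 library was left out; none was lower in any. Other scalings and filters gave 18 to 21 and the TPM fits 12 and 13. The cause of these differences was not tested. All 18 had an unadjusted p under 0.05 in every setting. Enzymes near 0 changed sign, none of them called where the sign changed. Under the macrophage scaling Ggct stood at 0.19, Ggt5 0.24, Txnrd2 0.11, Txn2 0.25, Prdx3 0.16, Prdx5 0.20, Gpx1 0.15, Tkt 0.12, Cbr1 0.25 and Gstk1 0.20. With library totals Ggt5 stood at 0.023, Txn2 at 0.036, Cbr1 at 0.041 and Gstk1 at 0.0039. With TPM plus 1 and plus 0.1, Txn2 stood at 0.0272 and 0.0275, Prdx5 at 0.00996 and 0.00997, Sod2 at -0.0090 and -0.0094 and Cbr1 at 0.0033 and 0.0032. With no filter Prdx2 stood at -0.0076 and Mgst3 at -0.0031. With 1 library left out the ranges were -0.15 to 0.0037 for Ggct, -0.15 to 0.015 for Ggt5, -0.068 to 0.0048 for Txn2, -0.018 to 0.031 for Prdx2, -0.13 to 0.025 for Prdx5, -0.0092 to 0.18 for Sod2, -0.067 to 0.18 for Taldo1, -0.073 to 0.044 for Cbr1, -0.053 to 0.27 for Gsta4, -0.18 to 0.062 for Gstk1 and -0.051 to 0.090 for Mgst3. Depth limits the scarce enzymes most, such as Sod3, Nqo1, Aox1, Mgst2 and Gsta4 with under 1 CPM in every iron negative library.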
